A study of Homo sapiens with 10 samples.

Results

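HERVH is a family of endogenous retroviruses, and its transcripts were followed here through 5 rows of a table of gene and transposable element (TE) expression in human embryonic stem cells. The rows were chosen by name: HERVH-int, the internal part of the element, and the long terminal repeats LTR7, LTR7B, LTR7C and LTR7Y. All 5 are subfamilies of the ERV1 class of retroviruses, which has 269 other rows in the table, and they make up 5 of its 973 TE rows and 5 of its 14785 rows in all. Each row sums the reads of all copies of a subfamily, so a value says nothing about which copies were transcribed. The RNA came from H1, an established line of embryonic stem cells with no engineered allele (its genotype is labelled wild type), grown without feeder cells on Matrigel in mTeSR1 medium. All 5 groups received a virus-packaged short hairpin RNA (shRNA) and puromycin selection, and each had 2 libraries described as biological duplicates. The hairpins were aimed at luciferase (shLUC, the control), at SMARCA4 (shSMARCA4), at MAFK (shMAFK), at E2F6 (shE2F6) or at KDM1A (shKDM1A). The series concerns candidate modulators of chromosome folding that is driven by TEs. SMARCA4 is an ATPase of the BAF chromatin remodelling complexes, MAFK a small MAF transcription factor, E2F6 a repressive E2F factor and KDM1A a histone demethylase.

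A HERVH provirus consists of an internal part between a pair of LTRs, and the LTR at its start works as its promoter. In human pluripotent stem cells HERVH is among the most highly transcribed endogenous retroviruses, many long noncoding RNAs of these cells start in an LTR7 copy, and strongly transcribed copies are known as boundaries of chromosome domains. LTR7, LTR7B, LTR7C and LTR7Y are related LTR groups of the family that differ in sequence, and LTR7Y and LTR7B have been tied to earlier embryonic stages than LTR7.

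Genes with annotated transcripts that start in LTR7 were read beside the subfamily rows. A gene's value does not separate these transcripts from its other transcripts. ESRG is a pluripotency-associated noncoding transcript that starts in LTR7 and runs into HERVH (GENCODE release 29, GRCh38, chromosome 3, 54632122 to 54639857, minus strand), and it has no row in the values used here. LINC00458 (ENSG00000234787, chromosome 13, 54115783 to 54132866, minus strand) and LINC-ROR (ENSG00000258609, chromosome 18, 57054558 to 57072119, minus strand) are long noncoding RNAs of pluripotent cells. ABHD12B (ENSG00000131969, chromosome 14, 50872160 to 50904970, plus strand) is a protein-coding gene of the abhydrolase family with a noncoding transcript that starts in such sequence. Where their starts aligned to the first 251 bases of the ESRG transcript, identity was 95.6% for LINC00458 over 251 bases, 95.3% for LINC-ROR over 214 bases and 96.0% for ABHD12B over 175 bases. In all, 33 annotated genes had a transcript with such a start. It begins, within its first 50 bases, with at least 100 bases that are at least 85% identical to those bases of ESRG. Of the 33, 15 have a row in the table (identity from 91.3% to 96.3%). The share of their annotated transcripts with such a start ranged from 5 of 5 in AC064802.1 to 1 of 12 in TFPI. It was 2 of 11 in CALB1, 1 of 9 in ABHD12B and 1 of 3 in RPL39L.

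The values are the authors' normalized tag counts, whole numbers that are no raw counts. The normalization gave all 10 libraries the same median (594) and nearly the same total, so their read depth is unknown. TE rows held 14.5% of the total in both shLUC libraries, 12.8% in shKDM1A replicate 1 (the lowest) and 16.0% in shKDM1A replicate 2 (the highest). shKDM1A replicate 1 also had the most rows at 0, 45 against 8 to 32 in the others. SMARCA4 read 8086 and 8374 in shLUC and 1100 and 985 in shSMARCA4 (log2 change -2.98, limma adjusted p = 8.55e-05). KDM1A read 6344 and 5925 in shLUC and 3290 and 1879 in shKDM1A (log2 change -1.30, limma adjusted p = 0.132), and E2F6 read 491 and 553 in shLUC and 336 and 304 in shE2F6 (log2 change -0.70, limma adjusted p = 0.774). MAFK read 212 and 288 in shLUC and 82 and 216 in shMAFK, so the library labelled shMAFK replicate 2 lay within the control range for the gene that its hairpin targets (log2 change -0.89, limma adjusted p = 0.572). Of all rows tested against shLUC, 4.18% passed an adjusted p of 0.05 in shSMARCA4, 0.0271% in shKDM1A, 0.0135% in shMAFK and 0.0% in shE2F6.

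HERVH-int and LTR7 were among the highest rows of the whole table, and both sat in a range where the normalization leaves few distinct values. HERVH-int read 148866 in all 10 libraries. That is the highest value the table holds, shared by 10 rows in each library, so a change of HERVH-int above this ceiling would not be seen and none can be read from these values. LTR7 read 61939 in both shLUC libraries, 61939 and 148866 in shE2F6, 61939 and 148866 in shSMARCA4, 51684 and 41804 in shMAFK, and 23453 and 61939 in shKDM1A. Both shMAFK libraries were below both controls, as were 25.3% of all rows and 100 of the 973 TE rows. In the 3 other knockdowns 1 library equalled the controls while its partner was higher (shSMARCA4, shE2F6) or lower (shKDM1A). LTR7 moved between 5 of the fixed steps that the normalization allows here. The step from the second to the highest is 1.27 on the log2 scale, and the step from the second to the third is 0.26. The log2 change against shLUC was 0.63 ± 0.54 (SE) in shSMARCA4 and the same in shE2F6, -0.41 ± 0.54 in shMAFK and -0.70 ± 0.54 in shKDM1A. None of the 4 passed (limma adjusted p = 0.665, 1, 0.945 and 0.587 in that order). The value of 148866 in replicate 2 of shSMARCA4 and of shE2F6 is 1 step above the controls. Without that library LTR7 in either knockdown equalled its control value. Over all rows, the differences between replicates of these 2 groups correlated at 0.34, the highest of 10 pairs of groups. Whether the 2 values are independent was not tested. Among TE rows alone LTR7 ranked 8 in both controls, and it ranked 11 and 17 in shMAFK and 23 and 9 in shKDM1A.

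**Figure D1:**
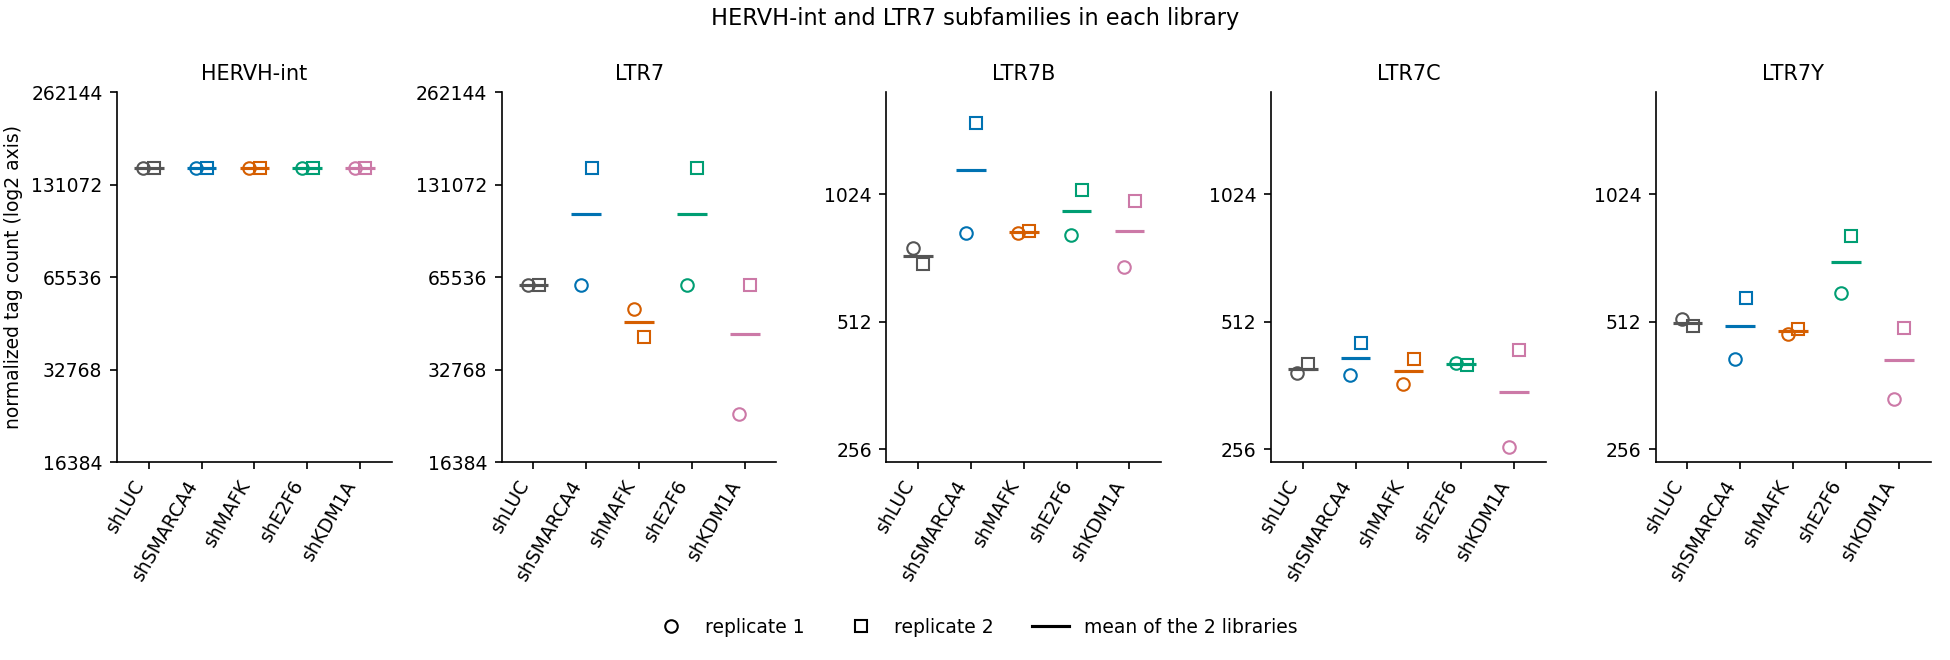
Normalized tag count (log2 axis, 2 ranges) of HERVH-int and the 4 LTR7 subfamilies in each library, with circles for replicate 1, squares for replicate 2 and a line for the mean of the 2 libraries. HERVH-int is at 148866 throughout, LTR7 moves between fixed steps, and shKDM1A replicate 1 is the lowest library of LTR7, LTR7B, LTR7C and LTR7Y.

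LTR7B lay in a range where the values that the normalization allows are closer together. It read 763 and 700 in shLUC, 821 and 1050 in shE2F6, 830 and 1510 in shSMARCA4, 830 and 839 in shMAFK, and 691 and 985 in shKDM1A. Both libraries of shSMARCA4, shMAFK and shE2F6 were above both controls, whereas shKDM1A replicate 1 was below them and replicate 2 above. Of all rows, 25.6%, 23.8% and 20.3% lay above both controls in shSMARCA4, shMAFK and shE2F6, so such an order was common. Among the 973 TE rows the counts were 195, 249 and 215 in the same order. The change in shSMARCA4 was 0.61 ± 0.28 on the log2 scale (95% interval -0.03 to 1.25), a mean of 1170 against 731.5, and it did not pass the test (limma adjusted p = 0.328). It rests mainly on replicate 2, and without that library it was 0.18. The changes in shMAFK, shE2F6 and shKDM1A were 0.19, 0.34 and 0.17 (SE 0.28 for each), with intervals that include 0.

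LTR7Y read 520 and 500 in shLUC, 600 and 818 in shE2F6, 418 and 582 in shSMARCA4, 480 and 493 in shMAFK, and 336 and 496 in shKDM1A. The shE2F6 libraries were the highest of the 10, the shMAFK and shKDM1A libraries lay below both controls, and the shSMARCA4 libraries lay on either side of them. Of all rows, 25.3% in shMAFK and 20.9% in shKDM1A lay below both controls. Among the 973 TE rows this order was less common, with 100 below in shMAFK and 45 in shKDM1A. The change in shE2F6 was 0.46 ± 0.24 (95% interval -0.09 to 1.00), a mean of 709 against 510, and it did not pass (limma adjusted p = 0.987). The other changes were -0.32 in shKDM1A, -0.07 in shMAFK and -0.05 in shSMARCA4 (SE 0.24 for each).

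LTR7C varied least. It read 388 and 406 in shLUC, 410 and 404 in shE2F6, 384 and 456 in shSMARCA4, 366 and 419 in shMAFK, and 259 and 440 in shKDM1A. Every knockdown overlapped the controls, and the low value of shKDM1A replicate 1 stood alone. The log2 changes were 0.08, -0.02, 0.04 and -0.23 in shSMARCA4, shMAFK, shE2F6 and shKDM1A (SE 0.23 for each), and intervals that reach from -0.76 to 0.61 leave room for changes of that size.

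**Figure D2:**
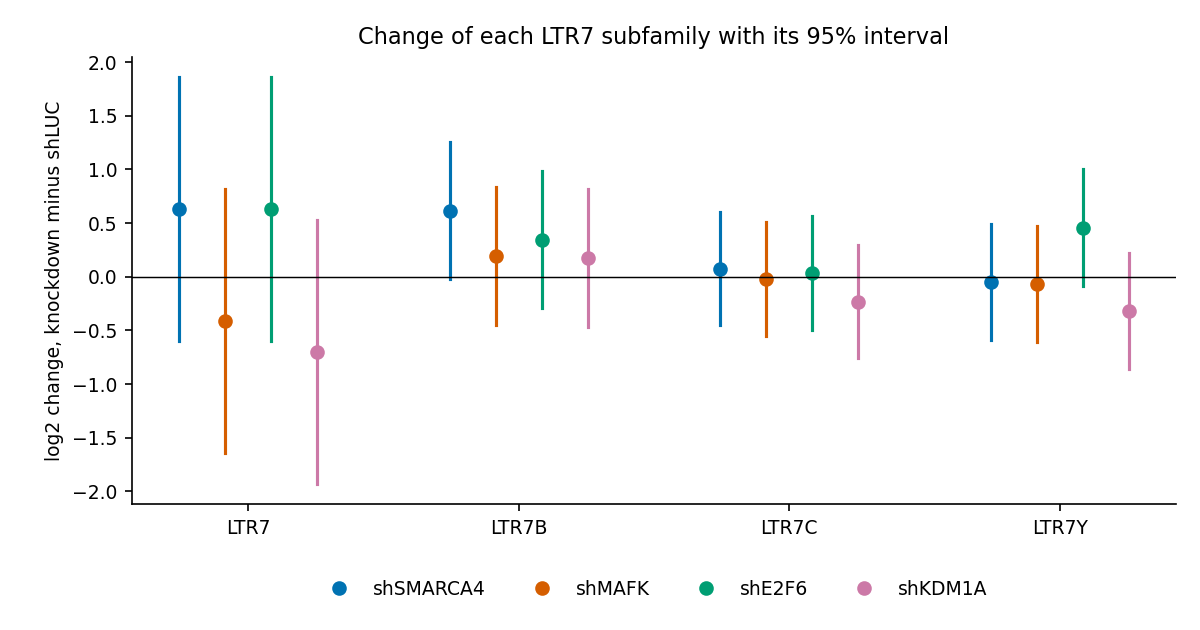
Change against shLUC on the log2 scale for LTR7, LTR7B, LTR7C and LTR7Y in each knockdown, from 2 libraries a group, where points are limma estimates and bars their 95% intervals. Every bar crosses 0, and those of LTR7 are the widest.

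Of the 16 tests on the 4 LTR7 rows, 0 passed at an adjusted p of 0.05 and 0 had an unadjusted p under 0.05 (limma, adjusted p from 0.328 to 1). Both libraries lay above both controls in 4 of the 16 and below them in 3, where from 17.9% to 25.6% of all rows lay above and from 20.4% to 25.4% below. Of the 973 TE rows, from 195 to 288 lay above both controls and from 45 to 100 below, depending on the knockdown. Differences among the 4 knockdowns were tested apart from the control with limma's F-test, and no LTR7 row passed (adjusted p = 0.254 for LTR7, 0.596 for LTR7B, 0.710 for LTR7C and 0.223 for LTR7Y), where 6.64% of all rows did. The library shKDM1A replicate 2 decides part of this. Without it LTR7C in shKDM1A, now replicate 1 alone, read a log2 change of -0.61 and passed (limma adjusted p = 0.0361, where 21.9% of all rows passed). The F-test then also passed for LTR7, LTR7C and LTR7Y (limma adjusted p = 0.0428, 0.0451 and 0.0379, where 35.9% of all rows passed). With 2 libraries a group, the p-values describe the spread between these libraries. Fewer cells with active copies and less RNA per cell cannot be told apart in such bulk RNA.

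The subfamilies were also compared with each other inside each library, where the difference in level cannot be read because it depends on the number and length of the copies, but its variation between libraries can. The log2 value of LTR7Y minus that of LTR7B was -0.55 and -0.48 in shLUC and -0.45 and -0.36 in shE2F6. It was -0.79 and -0.77 in shMAFK, -1.04 and -0.99 in shKDM1A, and -0.99 and -1.37 in shSMARCA4. All 6 libraries of shSMARCA4, shMAFK and shKDM1A were thus below the 4 libraries of shLUC and shE2F6. The SD between libraries of a group was 0.13 and the SD of the 5 group means 0.33. Among the 6 pairs of LTR7 rows this one, chosen after all of them had been seen and given with no test, had the smallest SD within groups. The shKDM1A replicates, which differed in both rows, differed little here, whereas the shSMARCA4 replicates differed in both rows and here as well. LTR7C minus LTR7B was -0.97 and -0.78 in shLUC and between -1.73 and -1 in the 8 other libraries. LTR7Y minus LTR7C was 0.55 and 1.02 in shE2F6 and between 0.12 and 0.42 in the 8 other libraries.

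**Figure D3:**
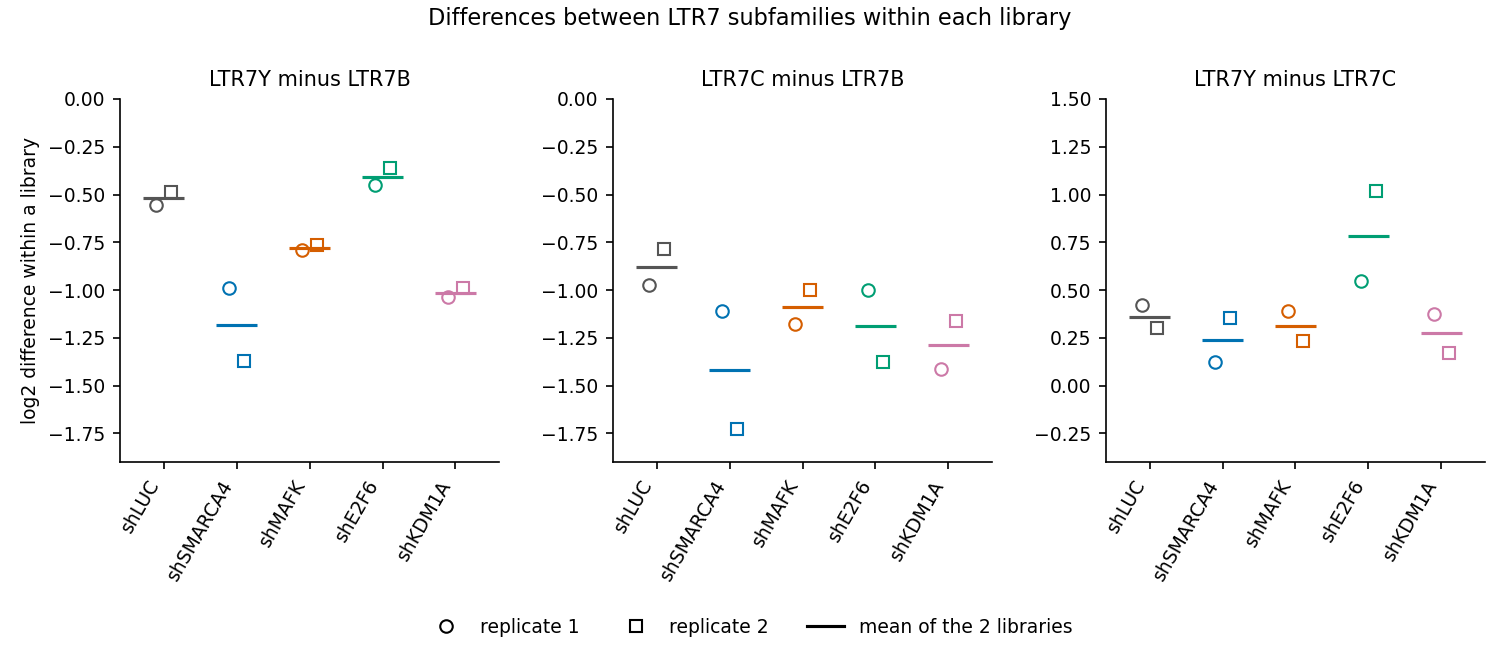
Difference between LTR7 subfamilies within each library on the log2 scale, with circles for replicate 1, squares for replicate 2 and a line for the mean of the 2 libraries. For LTR7Y minus LTR7B the libraries of shSMARCA4, shMAFK and shKDM1A lie below those of shLUC and shE2F6.

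Across all 10 libraries LTR7 was among the most variable TE rows. Its SD on the log2 scale was 0.785, larger than that of 99.6% of TE rows, although the wide fixed steps at its level add to it. The SD was 0.333 for LTR7B, 0.335 for LTR7Y and 0.226 for LTR7C, larger than in 88.5%, 88.9% and 61.2% of TE rows. The rows moved together in part: Pearson's r over the 10 libraries was 0.84 for LTR7 with LTR7Y (0.48 without the 2 libraries farthest from the median of LTR7) and 0.79 for LTR7 with LTR7B (0.82 without them). It was 0.54 for LTR7B with LTR7Y (0.38 without). These are descriptions, since the libraries share groups and the normalization. The rows most like LTR7, LTR7B and LTR7Y, by Pearson's r of log2 values over the 10 libraries and 14776 rows searched, were genes and not other TEs. They were AL662899.2, CSNK2B and ARAF for LTR7 (r from 0.98 to 0.99), KMT2C, CACNB4 and KIAA1958 for LTR7B (0.94 to 0.95), and KPNA2, ABHD4 and CMTM7 for LTR7Y (0.96 for each).

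Genes linked to HERVH were read in a range where the values that the normalization allows are closer together than for LTR7. Named from general knowledge, 8 genes have transcripts that start in or hold HERVH or LTR7 sequence, and 7 of them are in the table: LINC-ROR, LINC00458, LINC01108, ABHD12B, HHLA1, SCGB3A2 and RPL39L. In shMAFK 5 of the 7 lay below both controls (25.3% of all rows did), and the same 5 had an unadjusted p under 0.05 (4.49% of all rows were lower at that level). None of the 7 passed at an adjusted p of 0.05 (limma, smallest adjusted p = 0.177). The median log2 change of the 7 was -0.90 in shMAFK, -0.38 in shSMARCA4, -0.41 in shKDM1A and 0.36 in shE2F6, against medians between -0.02 and 0.01 over all rows. Taken by library, the median was -0.52 and -1.36 in shMAFK, -0.27 and -0.78 in shSMARCA4, -0.45 and -0.16 in shKDM1A, and 0.39 and 0.23 in shE2F6, so its size depended on the library and its sign did not. In shKDM1A 6 of the 7 lay below both controls (20.9% of all rows), in shSMARCA4 3 did (25.4%), and in shE2F6 3 lay above (20.3%) and 1 below (20.4%). At an unadjusted p under 0.05, 2 were lower in shSMARCA4 (8.53% of all rows), 1 in shKDM1A (5.61%) and 0 differed in shE2F6 (limma, 0 adjusted calls in each). The 4 comparisons share their control libraries. All 7 genes are described below, 2 of them (RPL39L and SCGB3A2) because their means are the highest and the others after their values had been seen.

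LINC01108 (ENSG00000226673, chromosome 6, 14280127 to 14285454, minus strand) is a long noncoding RNA. It read 246 and 245 in shLUC, 382 and 347 in shE2F6, 142 and 116 in shSMARCA4, 135 and 74 in shMAFK, and 150 and 220 in shKDM1A. The shE2F6 libraries were the highest of the 10, and every library of the 3 other knockdowns was below both controls. The log2 change was -1.29 ± 0.30 in shMAFK (limma adjusted p = 0.177), -0.93 ± 0.30 in shSMARCA4 (0.139), 0.57 ± 0.30 in shE2F6 (0.987) and -0.43 ± 0.30 in shKDM1A (0.549). It differed among the 4 knockdowns (limma F-test adjusted p = 0.0227). Its annotated transcripts held no match of 100 bases to the ESRG start, and neither did those of SCGB3A2.

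ABHD12B read 202 and 199 in shLUC, 263 and 252 in shE2F6, 160 and 154 in shSMARCA4, 140 and 110 in shMAFK, and 147 and 116 in shKDM1A. The order was that of LINC01108: shE2F6 above the controls, and the 6 libraries of the other knockdowns below them. The log2 change was -0.69 ± 0.20 in shMAFK (limma adjusted p = 0.312), -0.61 ± 0.20 in shKDM1A (0.350), -0.35 ± 0.20 in shSMARCA4 (0.452) and 0.36 ± 0.20 in shE2F6 (0.996). It also differed among the knockdowns (limma F-test adjusted p = 0.0372). Both F-test calls were lost in fits with 1 library fewer, for 6 of the libraries with LINC01108 and 8 with ABHD12B, and the highest limma adjusted p, without shE2F6 replicate 1, was 0.110 and 0.170.

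HHLA1 (ENSG00000132297, chromosome 8, 132061486 to 132111159, minus strand) has an annotated transcript with a match of 109 bases to the ESRG start (identity 96.3%). It read 142 and 76 in shLUC, 214 and 122 in shE2F6, 128 and 60 in shSMARCA4, 33 and 27 in shMAFK, and 60 and 51 in shKDM1A. The shMAFK libraries were the lowest of the 10 and the shKDM1A libraries also lay below both controls, while shSMARCA4 and shE2F6 overlapped them. The log2 change in shMAFK was -1.77 ± 0.46 (limma adjusted p = 0.246), and the F-test among knockdowns gave an adjusted p of 0.0505 (limma). That test passed in 7 of 19 alternatives, with an adjusted p of 0.0172 with the replicate number as a block (limma) and of 0.184 without shMAFK replicate 2.

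LINC-ROR, which is known to support pluripotency, read 128 and 77 in shLUC, 150 and 130 in shE2F6, 83 and 25 in shSMARCA4, 47 and 34 in shMAFK, and 75 and 74 in shKDM1A. Its controls differed widely, shMAFK and shKDM1A lay below them, shE2F6 lay above them, and shSMARCA4 overlapped them. The log2 change was -1.29 ± 0.52 in shMAFK (limma adjusted p = 0.517). LINC00458 read 505 and 324 in shLUC, 436 and 384 in shE2F6, 336 and 191 in shSMARCA4, 298 and 157 in shMAFK, and 514 and 382 in shKDM1A. In shMAFK alone did both libraries lie below both controls (log2 change -0.90 ± 0.37, limma adjusted p = 0.532). RPL39L, a ribosomal protein gene copy with a transcript that starts in LTR7, read 1027 and 1036 in shLUC, 926 and 861 in shE2F6, 1118 and 1068 in shSMARCA4, 1056 and 1036 in shMAFK, and 708 and 1022 in shKDM1A. It was below both controls in shE2F6 and shKDM1A (log2 changes -0.21 and -0.28, limma adjusted p = 1 and 0.542). SCGB3A2, a secretoglobin gene, read 828 and 758 in shLUC, 748 and 761 in shE2F6, 582 and 634 in shSMARCA4, 859 and 782 in shMAFK, and 614 and 755 in shKDM1A. It was below both controls in shSMARCA4 (log2 change -0.38, limma adjusted p = 0.264) and shKDM1A. In shMAFK neither of these 2 genes lay below both controls.

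**Figure D4:**
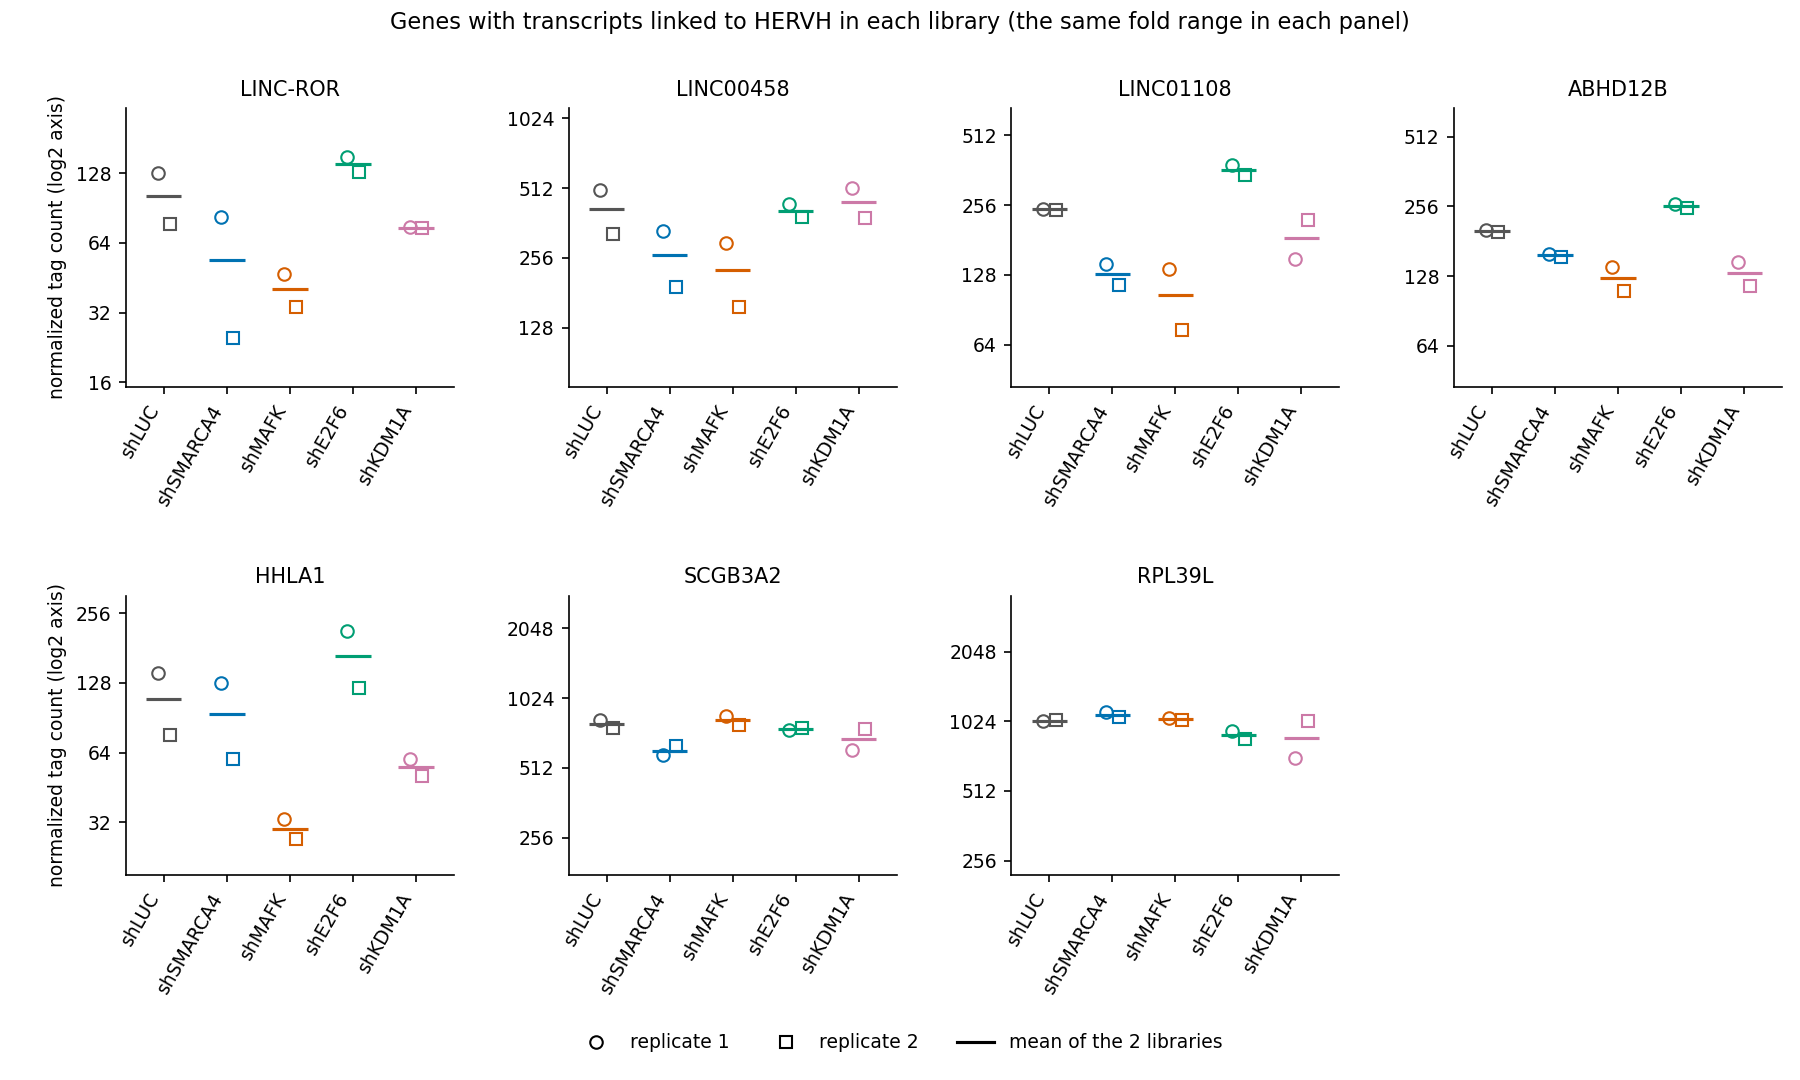
Normalized tag count (log2 axis, the same fold range in each panel) of the 7 genes with HERVH-linked transcripts in each library, with circles for replicate 1, squares for replicate 2 and a line for the mean of the 2 libraries. LINC-ROR, LINC00458, LINC01108, ABHD12B and HHLA1 lie below both controls in shMAFK, and LINC-ROR, LINC01108 and ABHD12B lie above them in shE2F6.

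The order of the 2 shMAFK libraries differed between MAFK and the HERVH-linked genes that were low there. MAFK itself was lower in replicate 1 (82) than in replicate 2 (216), whereas LINC01108 (135 and 74), LINC00458 (298 and 157), LINC-ROR (47 and 34), ABHD12B (140 and 110) and HHLA1 (33 and 27) were lower in replicate 2. Whether these genes follow the MAFK level was not tested, and 2 libraries cannot show it. When the spread was allowed to differ between groups, LINC01108, HHLA1 and ABHD12B passed in shMAFK (limma adjusted p = 0.0205, 0.0357 and 0.0400, where 3.29% of all rows passed). LINC01108 passed in shSMARCA4 when only these 2 groups were fitted (limma adjusted p = 0.0318, where 6.22% of all rows passed).

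The wider list of 15 genes with an LTR7-type start, defined by sequence alone, had medians nearer to 0. It shares 4 genes with the HERVH-linked list (LINC-ROR, LINC00458, ABHD12B and RPL39L) and holds 11 long intergenic noncoding RNAs and 4 protein-coding genes, the latter being ABHD12B, RPL39L, CALB1 and TFPI. Its median log2 change was 0.17 in shE2F6, -0.04 in shMAFK, -0.06 in shKDM1A and -0.19 in shSMARCA4. None of the 15 passed in any knockdown (limma, smallest adjusted p = 0.0922). At an unadjusted p under 0.05, 0 were higher and 5 lower in shMAFK, 3 higher and 1 lower in shSMARCA4, 1 higher in shE2F6 and 2 lower in shKDM1A; of all rows, 8.77%, 16.3%, 5.09% and 11.5% reached that level in these knockdowns in either direction. The 5 in shMAFK include LINC-ROR, LINC00458 and ABHD12B, which were already counted in the HERVH-linked list. In shMAFK 7 of the 15 lay below both controls and 1 above (25.3% and 23.8% of all rows), and in shE2F6 3 lay below and 6 above (20.4% and 20.3%). In shKDM1A 5 lay below and 0 above (20.9% and 17.9%). In shSMARCA4 5 lay below and 4 above, close to the 25.4% and 25.6% of all rows. The genes with the highest means were AC064802.1 and LINC00678, both long noncoding RNAs. AC064802.1 read 3780 and 3651 in shLUC and 5706 and 5300 in shSMARCA4 (log2 change 0.57, limma adjusted p = 0.220). LINC00678 read 3740 and 3874 in shLUC and 2796 and 2678 in shSMARCA4, a change of -0.48 ± 0.13 (limma adjusted p = 0.0922), and it passed without both shKDM1A libraries in the fit (limma adjusted p = 0.0324). AC022140.1 (292 and 183 in shLUC, 418 and 410 in shSMARCA4) and TFPI (94 and 95, then 135 and 153) also lay above both controls. CALB1, which encodes the calcium-binding protein calbindin, read 657 and 426 in shLUC, 344 and 178 in shMAFK and 280 and 296 in shKDM1A (log2 change -1.09 ± 0.32 in shMAFK, limma adjusted p = 0.324). The last 3 genes were singled out after their values had been seen.

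**Figure D5:**
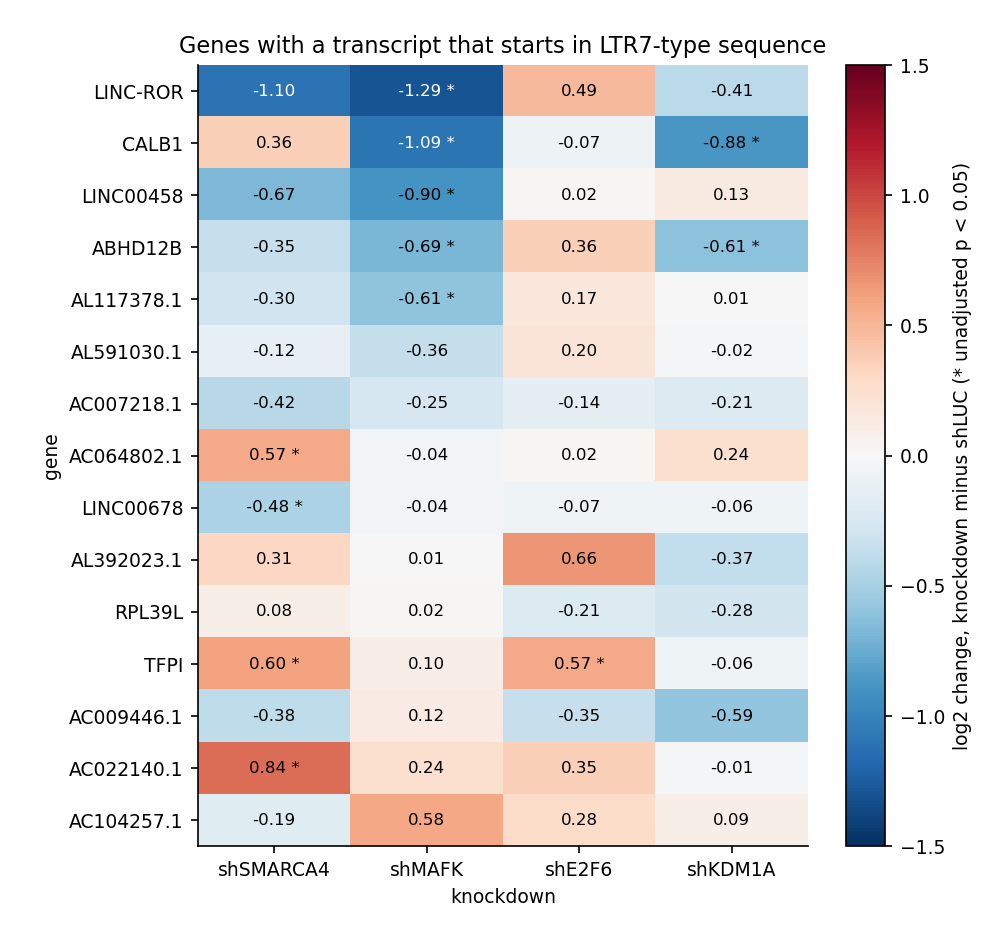
Log2 change against shLUC (colour and printed value) of the 15 genes with a transcript that starts in LTR7-type sequence, in each of the 4 knockdowns, sorted by the change in shMAFK, where a star marks an unadjusted limma p under 0.05. In shMAFK all 5 stars are on negative values, in shSMARCA4 3 of the 4 are on positive values, and no value passed after adjustment.

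Promoter sequence was available for 3 of the 8 named genes, LINC01108, ABHD12B and SCGB3A2 (RefSeq, GRCh38.p14, 250 bases before to 50 after the start). Only the 250 bases before the start were searched, in these genes and in all promoters. The octamer-type motif ATGCAAA, of the kind POU5F1 binds, was searched on both strands and found in none of the 3, and 3.94% of all 35116 promoters hold it. The KLF-type motif GGGTGTG or GGGTGGG was found in ABHD12B alone, and 23.2% of all promoters hold it. These are letter matches and no binding was measured.

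Factors that are known to bind LTR7 or act on HERVH were measured beside it. Of 8 named, 7 are in the table, and 0 passed in any knockdown (limma, smallest adjusted p = 0.0552, for SOX2 in shSMARCA4). At an unadjusted p under 0.05, 2 were higher and 1 lower in shSMARCA4 (16.3% of all rows in either direction), 1 was lower in shKDM1A (11.5%), and 0 passed in shMAFK or shE2F6. POU5F1, the pluripotency factor OCT4, lay on the same fixed steps as LTR7 and read 35710 in both controls and both shMAFK libraries, 51684 and 21308 in shSMARCA4, 30768 and 16615 in shE2F6, and 148866 and 35710 in shKDM1A. SOX2, its partner, read 6408 and 6928 in shLUC, 5706 and 5367 in shE2F6, 4426 and 4748 in shSMARCA4, 7576 and 7680 in shMAFK, and 6490 and 6343 in shKDM1A. It was below both controls in shSMARCA4 and shE2F6 and above them in shMAFK, and it differed among the knockdowns (limma F-test adjusted p = 0.0368). OTX2, a homeobox transcription factor named after its values were seen, read 674 and 734 in shLUC and 148 and 280 in shKDM1A and also differed among them (limma F-test adjusted p = 0.0431). Each of these 2 calls held in 10 of 20 alternatives.

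Silencing and boundary factors were measured for 9 of 10 genes named, and 0 passed in any knockdown (limma, 0 at an unadjusted p under 0.05 in each). TRIM28, the corepressor of KRAB zinc finger proteins, read 19692 and 18607 in shLUC and from 18607 to 30768 elsewhere. RAD21, a cohesin subunit, read 5300 and 6408 in shLUC and from 4958 to 6928 elsewhere.

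Other endogenous retroviruses gave the comparison for the LTR7 rows. Of 31 named internal parts and LTRs of other families, 30 are in the table, and 0 passed in any knockdown (limma). At an unadjusted p under 0.05, 2 of the 30 were higher and 1 lower in shKDM1A (11.5% of all rows in either direction). At that level 1 was lower in shMAFK (8.77%), 1 higher in shE2F6 (5.09%) and 1 lower in shSMARCA4 (16.3%). Over the 269 other ERV1 rows the median log2 change was 0.08 in both shSMARCA4 and shKDM1A, 0.07 in shE2F6 and 0.03 in shMAFK. The members with the highest means were LTR12C and HERV9NC-int, an LTR and an internal part of the HERV9 family. LTR12C read 14834 and 13575 in shLUC and lay below both controls in shSMARCA4 (11997 and 10757, log2 change -0.32, limma adjusted p = 0.381) and above them in shKDM1A (18607 and 15759, log2 change 0.27, limma adjusted p = 0.507). HERV9NC-int read 8496 and 6408 in shLUC and overlapped the controls in every knockdown. Of the 30, 9 lay above both controls and 7 below in shMAFK (23.8% and 25.3% of all rows). In shE2F6 7 lay above and 2 below (20.3% and 20.4%). In shSMARCA4 2 lay above and 8 below (25.6% and 25.4%), and in shKDM1A 8 lay above and 2 below (17.9% and 20.9%). HERVK-int, singled out after its values were seen, read 3780 in both shLUC libraries. It lay above both controls in shMAFK (6012 and 8496) and below them in every other knockdown (1166 and 1764 in shSMARCA4, limma adjusted p = 0.169). HERVH48-int, a separate family with its own LTR, MER48, was also singled out after its values were seen. It read 690 and 793 in shLUC, 936 and 844 in shE2F6, 646 and 597 in shSMARCA4, 572 and 598 in shMAFK, and 706 and 938 in shKDM1A. MER48 read 268 and 246 in shLUC, 203 and 178 in shMAFK, and 345 and 290 in shE2F6. Both rows were below both controls in shMAFK and above them in shE2F6, with log2 changes of -0.34 and -0.43 in shMAFK (limma adjusted p = 0.656 and 0.532) and 0.26 and 0.30 in shE2F6 (limma adjusted p = 1 for both).

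Markers of the cell state were read beside these values, and their part in them was not tested. All 8 pluripotency markers named were in the table, among them LIN28A (30774 to 51691), DNMT3B (25021 to 35710) and NANOG (1640 to 4613), and 0 of the 8 passed in any knockdown; at an unadjusted p under 0.05, 1 was higher and 3 lower in shSMARCA4 (16.3% of all rows in either direction) and 1 was higher in shE2F6 (5.09%, limma). Of 7 mesendoderm markers 3 were in the table, and all 3 were above both controls in shSMARCA4 (25.6% of all rows were). MIXL1 rose there from 20 and 14 in shLUC to 1809 and 132 (log2 change 4.79 ± 1.04, limma adjusted p = 0.0365). That call held in 15 of 23 settings, with changes from 2.91 (without shSMARCA4 replicate 1) to 6.67 and an adjusted p of up to 0.227 (limma, without shLUC replicate 2). EOMES read 14 and 34 in shLUC and 2430 and 724 in shSMARCA4, and FOXA2 read 4 and 2 and then 792 and 170. Neither EOMES nor FOXA2 passed there (limma adjusted p = 0.151 and 0.359). Of 4 trophoblast markers KRT7 was in the table and fell in shSMARCA4 from 218 and 296 to 30 and 44 (log2 change -2.77, limma adjusted p = 0.00463). None of 4 neuroectoderm markers was in the table. Of 6 naive-like markers 3 were in the table, and 0 passed in any knockdown (limma). At an unadjusted p under 0.05, 1 was higher in each of shSMARCA4 (16.3% of all rows in either direction), shE2F6 (5.09%) and shKDM1A (11.5%). TFCP2L1 read 248 and 250 in shLUC and 422 and 514 in shSMARCA4 (log2 change 0.90). DPPA3 read from 39 to 82 and DPPA5 from 36 to 160. In shKDM1A DPPA5 lay above both controls (160 and 113 against 72 and 36) and DPPA3 below them (39 and 42 against 76 and 60).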

How the data were processed

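Expression of genes and transposable element subfamilies was measured by RNA-seq in 10 libraries of H1 cells, 2 for each of 5 groups taken from the sample titles. The deposited values are treated as a score: the authors' normalized tag counts, whole numbers that share 1 set of ranks across libraries. The submitters' processing notes name STAR, STARsolo and hg38. The role of each tool, the annotation, the normalization and the sharing of reads between copies, or between a copy and the gene around it, are not given in the sources used here. Unmapped columns numbered 0.

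Values were analysed as log2(value + 1), which understates changes of low rows. A filter on means below 10 removed none of the 14785 rows. Each knockdown was compared with shLUC in 1 fit of the 10 libraries (limma 3.58.1 in R 4.3.3, mean-variance trend, two-sided, Benjamini-Hochberg adjustment over all rows, threshold 0.05), and limma's F-test compared the knockdowns. The fit was tested on simulated data. Transcript starts were aligned with blastn 2.17.0 to GENCODE release 29 transcripts; their sequences, and the rows most like LTR7C, are not reported here. Tables were made with Python 3.11.15 and pandas 2.3.3, plots with matplotlib 3.10.9.

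Members and lists were chosen with earlier results of these data known. Named were all members and, from each list, genes that passed in any knockdown, otherwise the 2 with the highest mean. Genes named outside this rule are marked as such, except the cell state markers DNMT3B, NANOG, EOMES, FOXA2 and DPPA3. The list of genes with an LTR7-type start and its alternatives were chosen after seeing the data. Replicate numbers were not used to pair the groups in the main fit. Deviations of same-numbered libraries correlated at -0.05 to 0.34 over 10 pairs of groups, above 0.1 in 2. These 2 were shSMARCA4 with shE2F6 (0.34) and shLUC with shMAFK (0.11). Alternatives covered the pseudocount, the filter, rescaling, quantile normalization, the variance model, a replicate block, the groups fitted and leaving out each library.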

Additional observations from a re-analysis of the deposited data

Results flagged for a closer look

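LINC01108 differed among the 4 knockdowns (limma F-test adjusted p = 0.0227), with 382 and 347 in shE2F6 and values from 74 to 220 in the 3 other knockdowns. ABHD12B also differed among them (limma F-test adjusted p = 0.0372), with 263 and 252 in shE2F6 and values from 110 to 160 in the 3 others. These were 2 of the 7 HERVH-linked genes, where 6.64% of all rows passed the same test. Of 20 alternatives, 14 kept LINC01108 past the threshold and 12 kept ABHD12B, and each alternative that did not leaves out 1 library of shLUC, shSMARCA4, shMAFK or shE2F6.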

How the results depend on the processing

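Against shLUC no LTR7 row passed under any alternative except LTR7C in shKDM1A without shKDM1A replicate 2 (1 of 348 values). In the F-test 3 of 80 values passed, all without that library. Pseudocount, filter, scaling and variance model changed no call for these rows. Signs turned only when 1 library was left out: LTR7C in shSMARCA4 -0.048 (without shSMARCA4 replicate 2; range -0.048 to 0.20), LTR7Y in shSMARCA4 0.19 (without replicate 1; range -0.29 to 0.19), LTR7C in shMAFK 0.01 (without shLUC replicate 2) and 0.078 (without shMAFK replicate 1; range -0.12 to 0.078), LTR7B in shKDM1A -0.081 (without replicate 2; range -0.081 to 0.43) and LTR7C in shKDM1A 0.15 (without replicate 1; range -0.61 to 0.15). Leaving out 1 library moved the limma F-test adjusted p from 0.0428 to 0.441 for LTR7, from 0.0451 to 0.864 for LTR7C and from 0.0379 to 0.571 for LTR7Y. The cause was not tested.

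The median change of the genes with an LTR7-type start in shSMARCA4 was -0.30 both for matches of 150 bases and for noncoding genes alone, in shKDM1A it was -0.21 for 150 bases, and in shE2F6 it was 0.025 for 150 bases and 0.10 for rows with a mean of at least 100. Leaving out 1 library gave -0.26 to -0.17 in shSMARCA4, -0.14 to -0.025 in shMAFK, 0.019 to 0.26 in shE2F6 and -0.45 to 0.083 in shKDM1A.

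The count of rows past the threshold was 618 in shSMARCA4 (group weights 1306, without both shKDM1A libraries 1162, 1 library left out 89 to 1159) and 2 in shMAFK (full quantile normalization 5, no trend 5, group weights 487, only these groups 32, without shKDM1A 34, 1 library left out 0 to 37). It was 0 in shE2F6 (group weights 21, only these groups 1, without shKDM1A 5, 1 library left out 0 to 5) and 4 in shKDM1A (no trend 9, group weights 2, only these groups 1, 1 library left out 1 to 3235). With the replicate number as a block, the count in shMAFK was 1, no LTR7 row and none of 75 list members changed its call against shLUC, and 6 list members changed their limma F-test call. HHLA1 (adjusted p = 0.0172), LINC00458 (0.0384), CALB1 (0.0302) and HERVK-int (0.0219) passed, and OTX2 (0.0564) and EOMES (0.0712) did not (limma). Where 1 library was left, it was assumed to vary like the other groups. Depth is unknown, so its limit on these values is too.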
